A study of Rattus norvegicus with 39 samples.

Results

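Vhl, the substrate receptor of the ubiquitin ligase that destroys the hypoxia-inducible factors (HIF), and 9 genes that HIF is known to activate were followed through hepatic ischemia and reperfusion in the rat. The 10 genes are Vhl, Egln1, Egln3, Pfkfb3, Aldoa, Pdk1, Ndrg1, Ddit4, P4ha1 and Ero1a. They were found by their platform symbols among 23409 probe sets of coding genes, and each had exactly 1 probe set, so all 10 were measured and no choice between probe sets arose. Liver RNA was hybridized to 39 Affymetrix arrays, 3 for each of 13 groups of male Wistar rats aged 5 to 6 weeks. In 12 rats under isoflurane the blood supply of the left and median lobes, 70% of the liver, was clamped for 30 min, and the liver was taken after 0, 0.5, 2 or 6 hr of reperfusion. From each of these rats 1 array measured the left and median lobes combined, called the reperfused lobe, and 1 array measured the right lobe, which kept its blood flow and is called the non-ischemic lobe. Lobes with the same replicate number were taken as the same rat, which the labels do not state. At 0 hr the reperfused lobe is a clamped lobe that received no blood back. The controls were 12 sham-operated rats, 3 at each time, whose livers were handled as for a clamp without stopping the blood, and 3 unoperated rats. All operated animals share the anesthesia and the opened abdomen, and which lobe of the shams was sampled is not given in the sources used here.

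In cells with oxygen, the prolyl hydroxylases of the Egln family mark the HIF alpha subunits, the Vhl protein binds the marked subunits, and they are ubiquitinated and degraded. Without oxygen the hydroxylases stall, HIF alpha accumulates, pairs with Arnt and binds the hypoxia response element, whose core reads ACGTG or GCGTG. Its targets move cells from respiration to glycolysis, slow growth and change collagen and protein folding. Egln1 and Egln3 are themselves HIF targets, which makes them a feedback arm of the pathway. In liver, oxygen falls from the portal to the central end of each lobule, so some of these genes are expressed without any injury.

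The promoters of 4 of the genes are shown because these genes moved in different ways below: Vhl and Pfkfb3 rose at 2 hr, Pdk1 was lower than in shams at 6 hr, and Ddit4 had the widest lobe difference at 0 hr, which did not pass the threshold. The sequences are those of RefSeq in the GRCr8 build, from 250 bases before to 50 bases after the annotated start, 5′ to 3′ on the strand of the gene, and capitals mark that core (ACGTG or GCGTG, searched on both strands, so that CACGT or CACGC also counts).
Pfkfb3, chr17:71944683-71944982, plus strand: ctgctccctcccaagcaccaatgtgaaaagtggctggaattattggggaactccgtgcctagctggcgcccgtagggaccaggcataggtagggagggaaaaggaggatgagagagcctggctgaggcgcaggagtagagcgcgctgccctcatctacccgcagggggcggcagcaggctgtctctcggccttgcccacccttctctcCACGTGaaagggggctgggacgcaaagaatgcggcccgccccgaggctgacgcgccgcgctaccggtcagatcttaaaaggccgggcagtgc
Vhl, chr4:148327849-148328148, plus strand: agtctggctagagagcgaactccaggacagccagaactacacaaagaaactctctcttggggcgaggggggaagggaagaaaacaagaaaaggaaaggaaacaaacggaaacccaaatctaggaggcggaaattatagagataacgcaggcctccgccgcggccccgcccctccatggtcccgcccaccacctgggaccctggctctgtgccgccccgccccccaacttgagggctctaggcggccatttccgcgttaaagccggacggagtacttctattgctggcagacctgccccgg
Pdk1, chr3:77113264-77113563, plus strand: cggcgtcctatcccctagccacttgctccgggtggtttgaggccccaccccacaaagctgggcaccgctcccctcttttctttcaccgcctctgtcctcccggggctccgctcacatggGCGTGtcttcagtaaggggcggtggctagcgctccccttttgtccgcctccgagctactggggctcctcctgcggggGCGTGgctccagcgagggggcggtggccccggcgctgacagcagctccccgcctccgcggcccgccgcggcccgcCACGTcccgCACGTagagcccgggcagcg
Ddit4, chr20:28436988-28437287, minus strand: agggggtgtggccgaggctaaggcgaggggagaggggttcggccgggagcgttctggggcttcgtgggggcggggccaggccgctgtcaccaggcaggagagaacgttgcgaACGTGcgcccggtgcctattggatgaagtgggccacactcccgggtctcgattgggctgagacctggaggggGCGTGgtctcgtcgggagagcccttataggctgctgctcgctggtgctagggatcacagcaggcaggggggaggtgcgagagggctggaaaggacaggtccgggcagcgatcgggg
Pfkfb3 held 2 overlapping matches in 1 palindrome, which starts 42 bases before the start, Pdk1 held 4 matches, Ddit4 held 2 and Vhl held none. RefSeq promoters were found for 8 of the 10 genes (not for Ndrg1 and Ero1a). Of the others, P4ha1 held 3 matches, Egln1 held 2, Egln3 held 0 and Aldoa held 1 in 1 of its 3 promoters. A match was present in 41.6% of 33469 rat promoters of this length and in 68.3% of the 8777 with a GC content of at least 60%, so a match is common and is given as a description of the letters only.

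The probe sets were for genes at chr4:148328099-148334992 (Vhl), chr19:69765276-69804681 (Egln1), chr6:77385549-77411015 (Egln3), chr17:71893320-71974526 (Pfkfb3), chr1:190832820-190838021 (Aldoa), chr3:77113464-77144145 (Pdk1), chr7:100573526-100614902 (Ndrg1), chr20:28434938-28437037 (Ddit4), chr20:27784696-27895785 (P4ha1) and chr15:20974771-21010170 (Ero1a) in GRCr8. All levels below are log2 of the deposited intensity of a probe set, and a difference of 1 on this scale is a doubling. A value after ± is a standard error. Of the 10 probe sets 9 had a mean level of at least 5, while that of Egln3 was 4.62, above 41.0% of all probe sets only. The medians of the 39 arrays lay between 39.6 and 43.6 on the linear intensity scale. The tissue was liver by its markers: Alb stood between 19.84 and 19.93 on every array, and the summed level of 7 hepatocyte markers was between 21.4 and 21.9. In these pieces of whole liver, fewer cells of a type and less RNA per cell cannot be told apart.

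**Figure D1:**
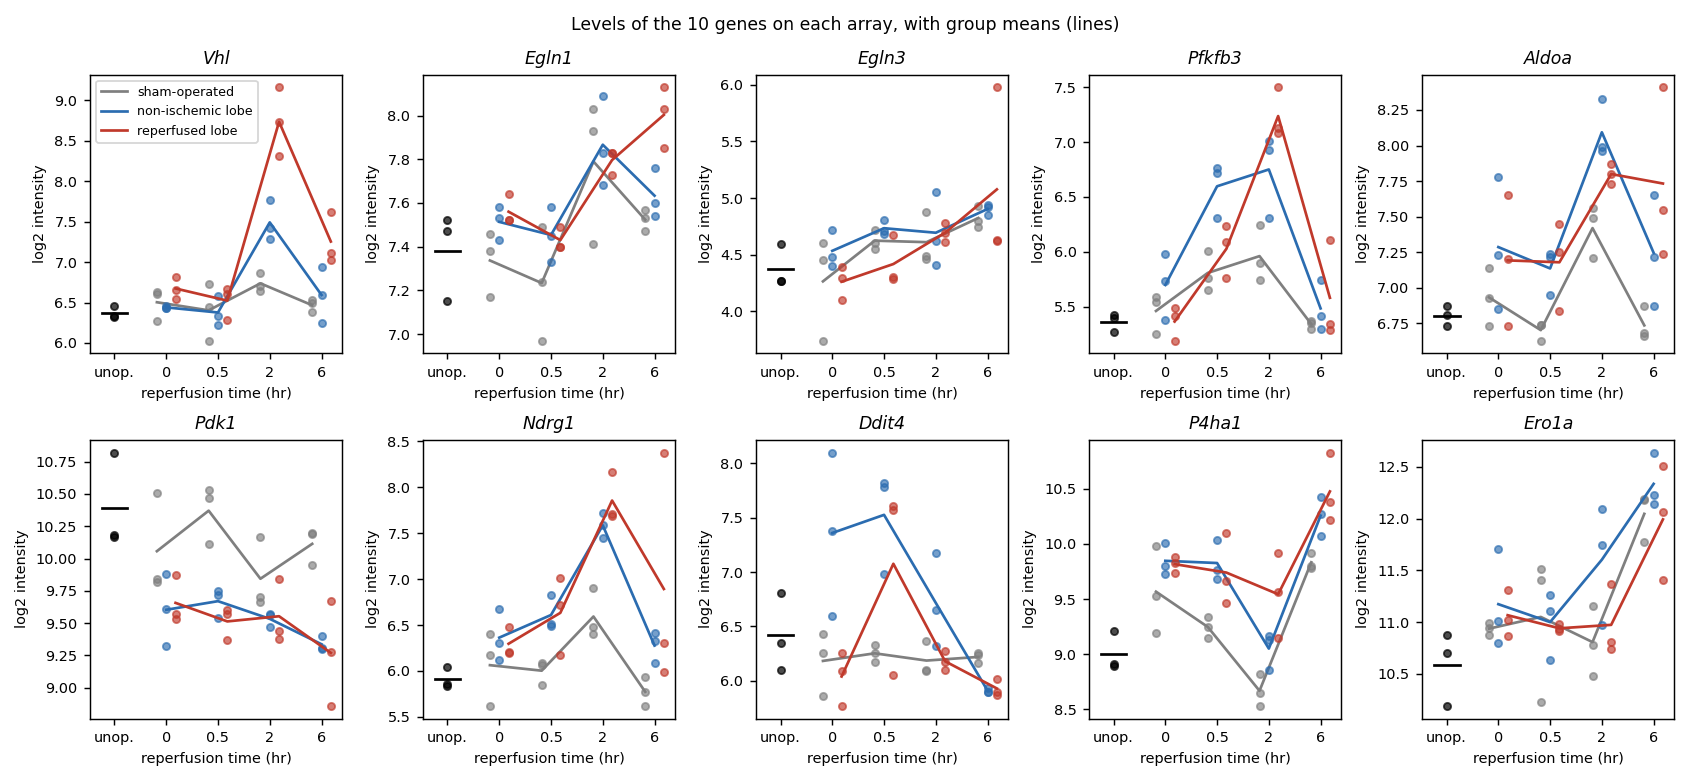
Log2 intensity (vertical axis) of each gene on each of the 39 arrays (points) by reperfusion time, with lines through the group means of sham-operated rats, non-ischemic lobes and reperfused lobes, and unoperated rats at the left. At 2 hr the reperfused arrays of Vhl lie between 8.31 and 9.16, above all 12 shams (6.03 to 6.87).

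The first question was whether 30 min of ischemia, with no reperfusion, moved these genes. No member passed the threshold in the clamped lobe at 0 hr, whether it was set against the non-ischemic lobe of the same rats (0 of 10, with 0% of all 23409 probe sets called) or against the 12 pooled shams (0 of 10, with 0.0128% called and 0.00854% higher). The tests were limma fits over all probe sets with q-values adjusted by Benjamini and Hochberg and a threshold of 0.05, and the q-value of every member between lobes was 1. For the lobe comparison 1 of the 10 genes, Vhl, had all 3 clamped arrays above all 3 non-ischemic arrays and 2 genes, Egln3 and Ddit4, had them all below, where 5.66% of all probe sets had groups that did not overlap. Against the pooled shams no member had groups apart. The lack of a call is no proof of equal levels, and the intervals below show the precision of 3 arrays per group. Those between lobes come from fits that do not pair the lobes of a rat. They are therefore not intervals of the differences within rats.

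The gene with the widest lobe difference at 0 hr was Ddit4, which encodes REDD1, an inhibitor of mTORC1 that is induced by hypoxia, glucocorticoids and DNA damage. The clamped lobes measured 6.26, 6.09 and 5.77 in rats 1, 2 and 3, and the non-ischemic lobes of the same rats 7.38, 8.10 and 6.60. The clamped lobe was the lower one in 3 of 3 rats, by 0.83 to 2.01. The mean difference was -1.32 ± 0.38 (SE, n = 3 per group, 95% interval -2.25 to -0.39, limma q = 1). The clamped lobes lay within or just below the range of the 12 shams (lowest 5.86, median 6.25, highest 6.43), and their difference from the shams was -0.17 (95% interval -0.40 to 0.06, limma q = 0.568). It was the non-ischemic lobes that stood outside it: all 3 were above every sham, with a mean difference of 1.15 ± 0.20 (limma q = 0.0792), where 1.23% of probe sets had groups that did not overlap. Of all probe sets 0.00854% passed in that comparison, each of them higher. Without replicate 3 of the non-ischemic lobes the difference of Ddit4 was 1.53 and passed the threshold (limma q = 0.000609).

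Vhl measured 6.54, 6.66 and 6.82 in the clamped lobes at 0 hr and 6.43, 6.46 and 6.43 in the non-ischemic lobes. Although the clamped lobe was higher in 3 of 3 rats, the mean difference was only 0.23 (95% interval 0.01 to 0.46, limma q = 1), and the shams at 0 hr (6.61, 6.27 and 6.63) overlapped both lobes. Against the pooled shams the clamped lobe differed by 0.15 (95% interval -0.14 to 0.43, limma q = 0.702).

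Of the hydroxylases, Egln1 (PHD2), the main HIF hydroxylase in oxygenated cells, was at 7.52, 7.64 and 7.52 in the clamped lobes and at 7.58, 7.53 and 7.43 in the non-ischemic lobes, a difference of 0.05 (95% interval -0.15 to 0.24). Egln3 (PHD3), the isoform most strongly induced by HIF in many cell types, was at 4.29, 4.39 and 4.10 in the clamped lobes and at 4.48, 4.72 and 4.40 in the non-ischemic lobes. Its difference of -0.28 (95% interval -0.58 to 0.02, limma q = 1) ran in the same direction in 3 of 3 rats at a level where the probe set is dim.

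None of the glycolytic members passed at 0 hr. Pfkfb3, which makes the activator of phosphofructokinase, was lower in the clamped lobe of 3 of 3 rats, by 0.19 to 0.49, but the arrays of the lobes overlapped (clamped 5.19 to 5.49, non-ischemic 5.38 to 5.98, limma q = 1). Aldoa, the aldolase of muscle and of many growing cells, differed by -0.09 (95% interval -0.86 to 0.68, lobes not paired). Within rats 1, 2 and 3 its differences were -0.03, -0.13 and -0.11, so the clamped lobe was the lower one in 3 of 3. Pdk1, a kinase that inhibits pyruvate dehydrogenase, differed by 0.05 between lobes (95% interval -0.37 to 0.47). The levels of Pdk1 were lower than the sham mean of 10.1 in all 6 lobe arrays at 0 hr, by -0.44 on average in the clamped and by -0.49 in the non-ischemic lobes, with neither past the threshold (limma q = 0.354 and 0.338).

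Among the remaining targets, Ndrg1, a stress-induced growth regulator that is one of the most widely used hypoxia markers, differed by -0.07 between lobes (95% interval -0.47 to 0.34). P4ha1, a subunit of the prolyl hydroxylase that matures collagen, differed by -0.03 (95% interval -0.27 to 0.21), and Ero1a, an oxidase that forms disulfide bonds in the endoplasmic reticulum, by -0.11 (95% interval -0.74 to 0.52). Against the pooled shams the clamped-lobe differences of these 3 genes were 0.19, 0.49 and -0.14, with limma q-values of 0.762, 0.502 and 0.897. Against the 3 shams of 0 hr alone, where 0% of probe sets were called, the difference of P4ha1 was 0.25 and that of Ddit4 in the non-ischemic lobe 1.18 (limma q = 0.759 and 0.649).

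**Figure D2:**
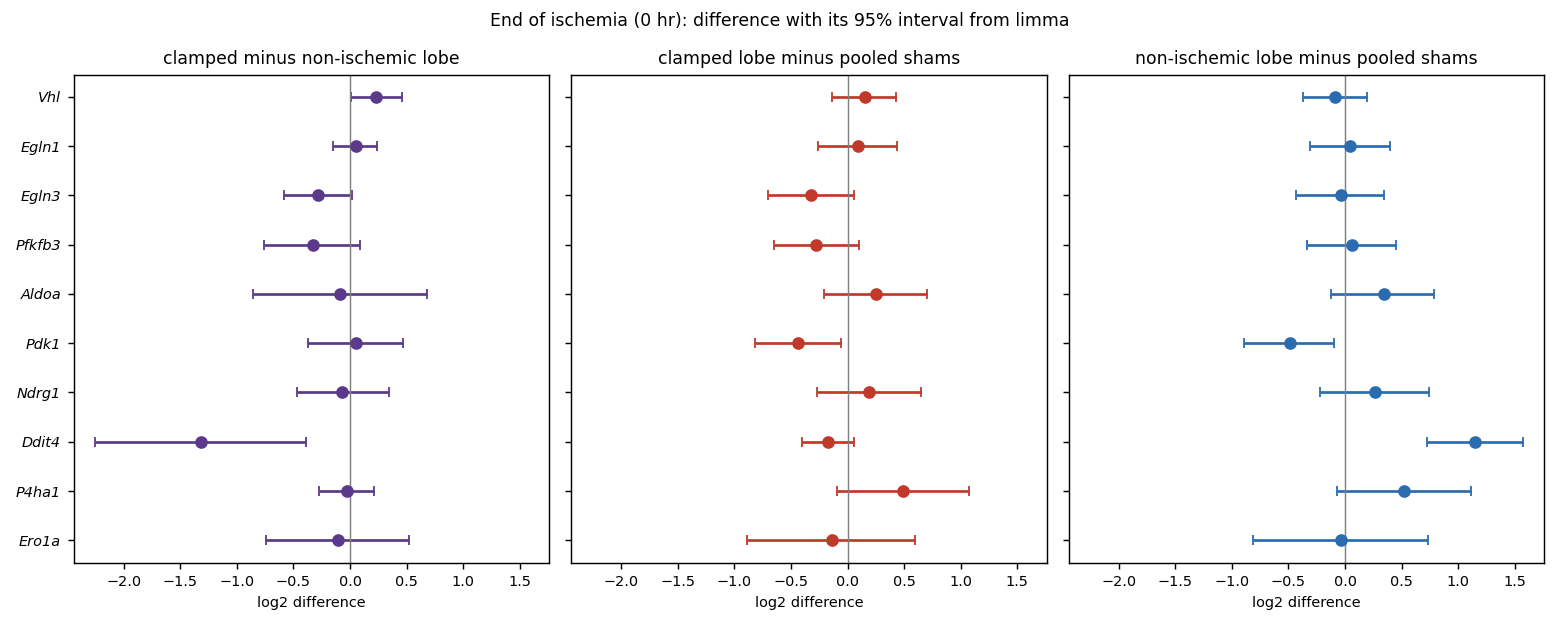
Log2 difference at 0 hr (horizontal axis) with its 95% interval from limma for each gene, between the lobes (n = 3 and 3, not paired) and between each lobe and the pooled shams (n = 3 and 12). For Ddit4 the interval is -2.25 to -0.39 between lobes, -0.40 to 0.06 for the clamped lobe against shams, and 0.72 to 1.57 for the non-ischemic lobe against shams.

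After 0.5 hr of blood return no member passed between the lobes (0 of 10 called, with 0.0513% of all probe sets called and 0.047% higher). Against the pooled shams, 2 members rose in the non-ischemic lobe and 0 fell (with 0.376% of all probe sets called, 0.286% higher and 0.0897% lower) and 0 in the reperfused lobe (with 1.05% called). The comparisons share their shams, and each lobe's own values are given. Ddit4 reached 7.78, 7.82 and 6.98 in the non-ischemic lobes, all above the highest sham of 6.43, a difference of 1.32 ± 0.14 (limma q = 0.000359). In the reperfused lobes it measured 7.61, 7.57 and 6.05, so that 2 arrays were as high as the non-ischemic ones and 1 lay among the shams. The difference of 0.87 did not pass the threshold (limma q = 0.088), and without that array, replicate 3, it was 1.38 and passed (limma q = 1.07e-05).

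Pfkfb3 at 0.5 hr measured 6.72, 6.76 and 6.31 in the lobes that were never clamped. The reperfused ones measured 6.23, 5.76 and 6.09, and the shams ran from 5.25 to 6.24. All non-ischemic arrays were above all shams, as for 1.07% of probe sets, with a difference of 0.96 ± 0.18 (limma q = 0.0367), while the reperfused difference was 0.38 (limma q = 0.348). The reperfused lobe was the lower one in 3 of 3 rats and its arrays did not overlap the non-ischemic ones, as in 9.91% of all probe sets, at a mean difference of -0.57 (95% interval -0.99 to -0.15, limma q = 0.82). The non-ischemic call for Pfkfb3 was lost on leaving out replicate 1 or 2 of that group (q = 0.149 and 0.206), replicate 2 of the 0 hr shams, replicate 3 of the 0.5 hr shams or any of the 6 hr shams (q between 0.0503 and 0.0536), which left 1 member called. How many of all probe sets passed in these fits is not given here.

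The choice of shams mattered at 0.5 hr. Against the 3 shams of that time alone, 5 members passed on the non-ischemic side, where 5.40% of all probe sets were called: Ddit4 (1.28), Pfkfb3 (0.79), Ndrg1 (0.61) and P4ha1 (0.58) were higher and Pdk1 (-0.70) was lower, with limma q-values of 0.0291, 0.0390, 0.0451, 0.0430 and 0.0355. In the reperfused lobe 1 member passed against those shams, with 4.57% of all probe sets called. It was Pdk1, at 9.37, 9.57 and 9.60 against 10.53, 10.47 and 10.11 in the shams, a difference of -0.86 ± 0.14 (limma q = 0.0238). Of 9 marker genes of red blood cells and platelets 2 were higher in that lobe at 0.5 hr against the pooled shams and 7 did not pass, with overlapping summed levels of 19.57 to 19.90 against 18.84 to 19.68 in the shams. Its cholangiocyte markers summed to 8.47 to 9.03, above all shams (8.11 to 8.43). The neutrophil sum of 7.17 to 8.53 overlapped that of the shams (7.03 to 7.77). The part of these cells in these results was not tested.

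At 2 hr Vhl, Ndrg1, Pfkfb3 and Aldoa were higher than in the pooled shams in each lobe. In the reperfused lobe 4 of the 10 members were higher and 0 lower, where 3.95% of all probe sets were higher, 2.94% lower and 6.89% called in either direction. In the non-ischemic lobe 5 were higher and 0 lower, where 3.9% of all probe sets were higher, 2.94% lower and 6.84% called in either direction. All lobe arrays of these 4 genes lay above all 12 shams, as did those of 3.2% of all probe sets in the reperfused and 3.26% in the non-ischemic lobe.

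Vhl had the largest difference of the 10 in the reperfused lobe, and in the non-ischemic lobe it came after Ndrg1, Aldoa and Pfkfb3. Its reperfused lobes measured 8.73, 8.31 and 9.16 and its non-ischemic lobes 7.42, 7.77 and 7.28, while the 12 shams ran from 6.03 to 6.87 with a median of 6.57. The reperfused lobe was thus 2.21 ± 0.16 above the shams (4.61-fold, limma q = 2.3e-06) and the non-ischemic lobe 0.96 ± 0.14 (1.94-fold, limma q = 0.00356). Over all 13 groups the order of the means was led by the reperfused lobe at 2 hr (8.73), whose arrays were all above those of the next group. The non-ischemic lobe at 2 hr (7.49) and the reperfused lobe at 6 hr (7.25) followed with overlapping arrays, and the other 10 groups lay between 6.37 and 6.74.

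The reperfused lobe was higher in Vhl than the non-ischemic lobe of the same rat in 3 of 3 rats at 2 hr, by 1.31, 0.55 and 1.88, and the arrays did not overlap, as in 10.6% of all probe sets. Of the 10 members 2 were higher on all reperfused arrays, Vhl and Pfkfb3, and 2 were lower on all, Ddit4 and Aldoa. The within-rat differences of Vhl had a standard deviation of 0.667, a spread that the fit without pairing does not use. In that fit the mean difference of 1.25 ± 0.24 (95% interval 0.68 to 1.81) did not pass over all probe sets (limma q = 0.293, with 0.0128% of them called). It passed only in the fit that took its spread from all 39 arrays (limma q = 0.000647). The change of the lobe difference from 0 to 2 hr, tested on differences within animals, was 1.01 (95% interval 0.25 to 1.77, limma q = 0.432). None of the 10 members passed that test from 0 to 0.5, 2 or 6 hr, where 0.0513%, 0.171% and 0% of all probe sets did.

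Ndrg1 at 2 hr measured 7.69, 7.71 and 8.17 in the reperfused lobes. The non-ischemic lobes were close to them at 7.59, 7.72 and 7.45, and all 6 arrays were above the highest sham of 6.90. The differences were 1.75 ± 0.22 (3.37-fold, limma q = 0.000277) and 1.48 ± 0.22 (2.78-fold, limma q = 0.00343). Between the lobes Ndrg1 differed by 0.28 (95% interval -0.10 to 0.65), with overlapping arrays. Pfkfb3 measured 7.08, 7.50 and 7.13 after clamping. In the non-ischemic lobes it measured 7.01, 6.93 and 6.31, which places these groups 1.60 ± 0.18 and 1.11 ± 0.19 above the shams (limma q = 0.000102 and 0.00664). Where the non-ischemic lobe had been the higher one at 0 and 0.5 hr, the reperfused lobe was now higher in 3 of 3 rats, by 0.08 to 0.82 (limma q = 0.781 between lobes).

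In Aldoa, as in Ddit4 and Ero1a, the non-ischemic lobe was the higher one in 3 of 3 rats at 2 hr. Its arrays measured 8.33, 7.96 and 7.99 against 7.73, 7.80 and 7.87 in the reperfused lobe. Against the shams (6.63 to 7.56) the differences were 1.15 ± 0.19 in the non-ischemic lobe (limma q = 0.00511) and 0.85 ± 0.19 in the reperfused lobe (limma q = 0.0123). The lobes differed by -0.29 with a q of 0.749. Ddit4 was at 6.17, 6.27 and 6.10 in the reperfused lobe, within the sham range, and at 7.18, 6.65 and 6.32 in the non-ischemic lobe, 0.51 ± 0.14 above the shams (limma q = 0.0378). In Egln1, Egln3, Pdk1, P4ha1 and Ero1a the 2 hr lobes did not pass against the pooled shams, with limma q-values from 0.0655 to 0.788.

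These counts changed with the controls and with single arrays. For the fits without 1 array, the share of all probe sets called is not given here. The 2 hr shams were themselves the highest sham group in Vhl (6.74), Ndrg1 (6.59), Pfkfb3 (5.96), Aldoa (7.42) and Egln1 (7.79). They were the lowest in P4ha1 (8.66), Pdk1 (9.84) and Ero1a (10.81). Against these 3 shams alone, 2 members passed in the reperfused lobe, Vhl at 1.99 (limma q = 0.0288) and Pfkfb3 at 1.28 (limma q = 0.0405), where 0.726% of all probe sets were called, and Ndrg1 at 1.27 did not (limma q = 0.0528). In the non-ischemic lobe 0 members and 0% of probe sets passed against them, with differences of 0.99 for Ndrg1, 0.79 for Pfkfb3, 0.75 for Vhl and 0.67 for Aldoa (limma q from 0.221 to 0.342). Against the pooled shams Aldoa was lost in the reperfused lobe without its replicate 2 or 3 (q = 0.0536 and 0.0614). In the non-ischemic lobe 3 members were called without its replicate 1 or 2, which cost the calls of Pfkfb3 (q = 0.0548 and 0.0574) and Ddit4 (differences of 0.28 and 0.54, q = 0.26 and 0.123). The call of Ddit4 was also lost without replicate 2 or 3 of the 0.5 hr shams, replicate 2 of the 2 hr shams, or replicate 2 or 3 of the 6 hr shams (q between 0.0509 and 0.0547). Markers of other cells moved at this time as well. In the reperfused lobe 2 of 6 cholangiocyte markers were higher (summed level 8.78 to 9.20 against 8.11 to 8.43 in the shams, with Krt7 under 5 on every array), and 2 of 7 endothelial and 1 of 6 stellate markers were lower. The non-ischemic lobe had 1 of 9 red cell and platelet markers higher and 1 of 6 stellate markers lower. Their part in these results was not tested.

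**Figure D3:**
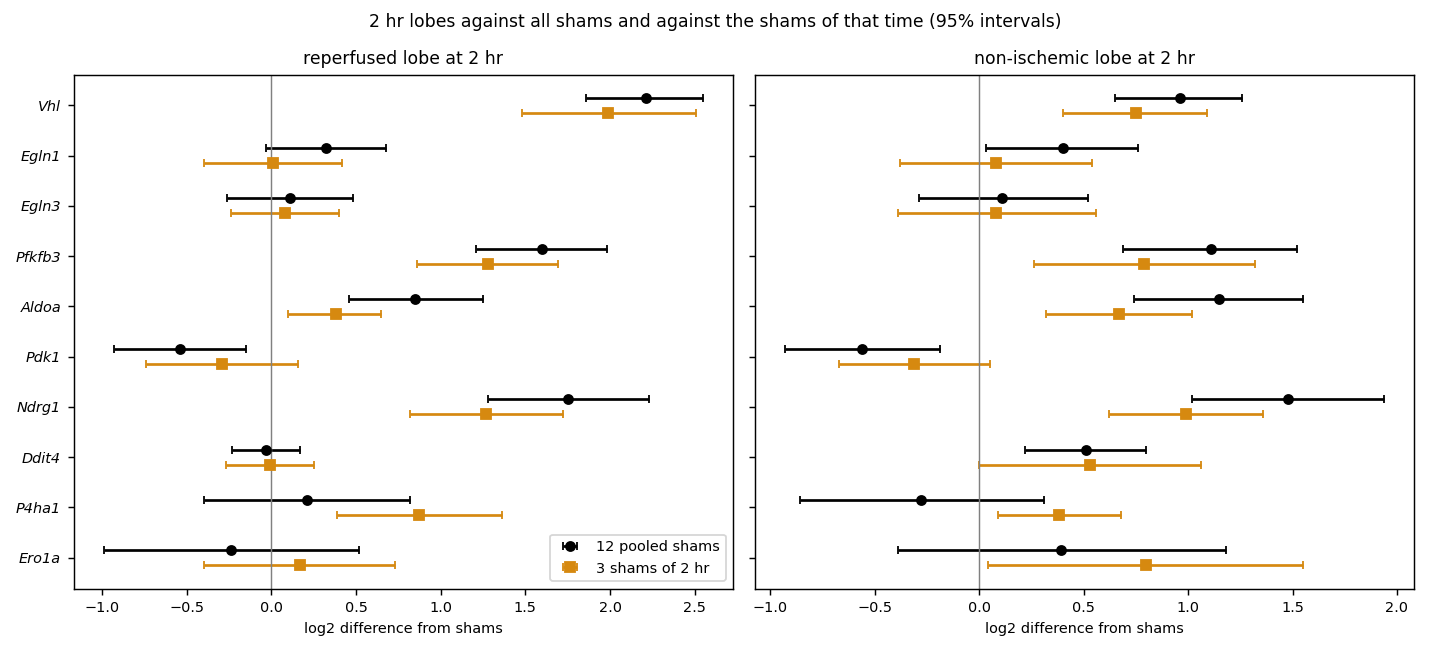
Log2 difference of the 2 hr lobes (3 arrays each) from the 12 pooled shams (circles) and from the 3 shams of 2 hr (squares), with 95% intervals from limma. Vhl in the reperfused lobe stays near 2 with either control (2.21 and 1.99), Aldoa moves from 0.85 to 0.38, and P4ha1 from 0.21 to 0.87.

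Counting from the end of ischemia within each lobe, 3 members rose to 2 hr in the reperfused lobe, with 2.41% of all probe sets called and 1.28% higher: Vhl by 2.06 (limma q = 0.0125), Pfkfb3 by 1.87 (limma q = 0.00772) and Ndrg1 by 1.56 (limma q = 0.012). Without replicate 1 of the 0 hr or of the 2 hr group, 1 member, Pfkfb3, stayed past the threshold (q for Vhl 0.0728 and 0.0643, for Ndrg1 0.0557 and 0.0546). In the non-ischemic lobe, with 1.18% of all probe sets called, 0.773% higher and 0.41% lower, Vhl rose by 1.05 and Ndrg1 by 1.22, and P4ha1 fell by 0.80 (limma q = 0.0362, 0.0363 and 0.0491). Leaving out any 1 of the 6 arrays of that comparison, replicate 1, 2 or 3 of either time, left 0 members called. The differences in these smaller fits stayed near those of the full fit. They were 0.91 to 1.15 for Vhl, 1.1 to 1.37 for Ndrg1 and -0.86 to -0.7 for P4ha1 (limma q from 0.0672 to 0.168). The shares of all probe sets called without 1 array are not given here for either lobe. From 0 to 0.5 hr 0 members passed in each lobe (0.132% and 0.00427% of probe sets called), as from 0 to 6 hr (4.72% and 6.31%). The closest of the latter was Ero1a in the non-ischemic lobe, at 1.16 with a q of 0.0576.

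**Figure D4:**
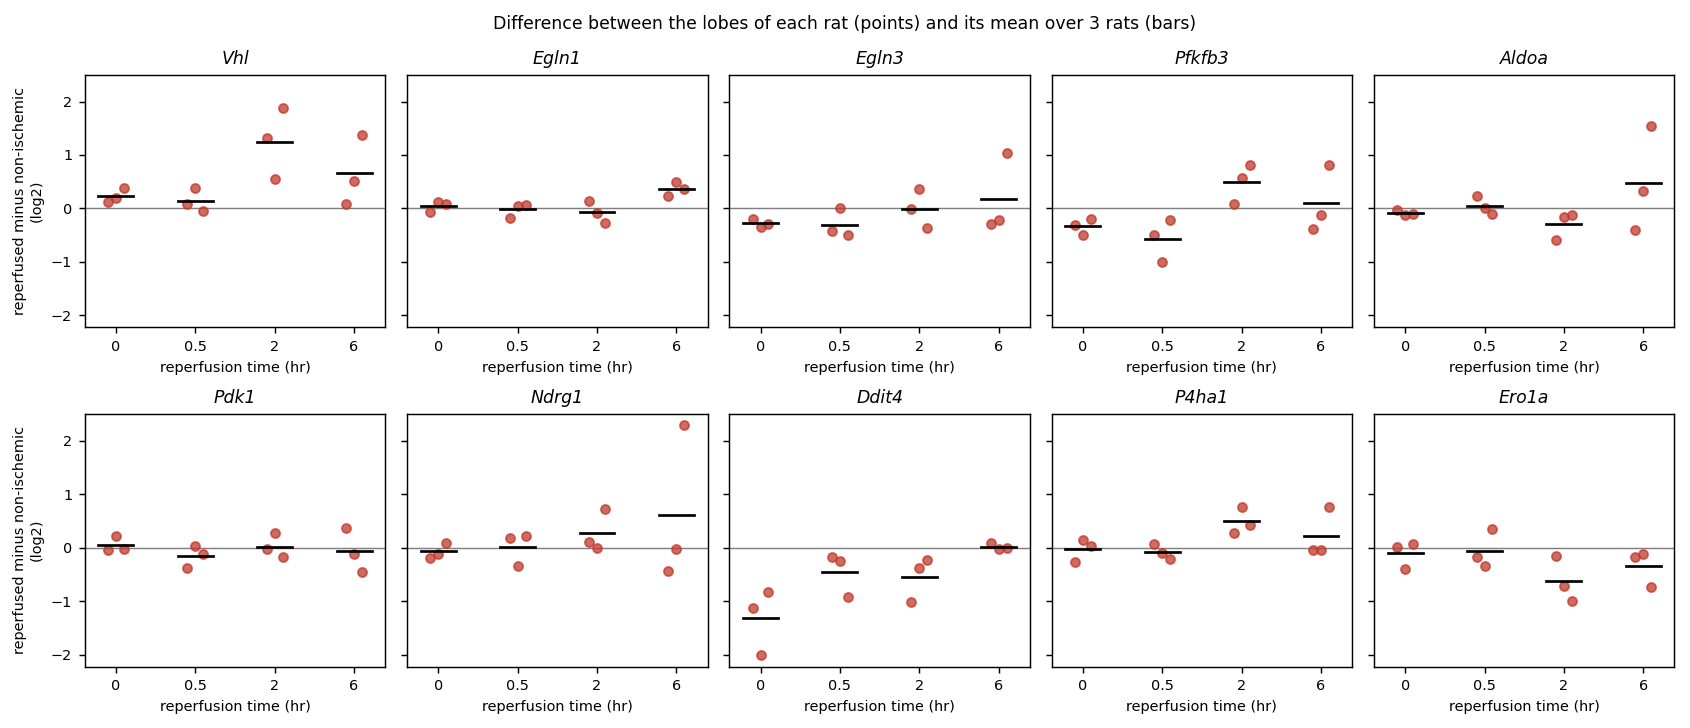
Reperfused minus non-ischemic lobe of the same rat (log2, vertical axis) at each reperfusion time, with a point per rat and a bar at the mean of 3 rats. Ddit4 is negative in all rats at 0, 0.5 and 2 hr (means -1.32, -0.45 and -0.54), and Pfkfb3 is negative in all rats at 0 and 0.5 hr and positive in all at 2 hr (-0.33, -0.57 and 0.49). The pairing of lobes by number is least sure at 6 hr.

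At 6 hr Pfkfb3 did not pass against the shams in either lobe (-0.06 and -0.16, limma q = 0.88 and 0.648), nor did Ndrg1 (0.79 and 0.17, limma q = 0.178 and 0.687). In the reperfused lobe 4 members were higher than the pooled shams and 1 lower, where 11.5% of all probe sets were higher, 5.12% lower and 16.6% called. P4ha1 measured 10.22 to 10.83 against 8.53 to 9.98 in the shams, 1.15 ± 0.28 higher (limma q = 0.0108). Vhl was still 0.73 ± 0.15 above the shams at 7.03, 7.11 and 7.62 (limma q = 0.0038), Aldoa was 0.79 ± 0.23 higher (limma q = 0.0303) and Egln1 0.53 ± 0.17 higher (limma q = 0.0424). Pdk1 was 0.83 ± 0.20 lower than the shams, as a log2 difference of -0.83 (limma q = 0.00909).

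Several of these calls were lost without 1 array, in fits whose share of all probe sets called is not given here. Replicate 3 of the reperfused lobe at 6 hr measured 8.38 for Ndrg1, 5.98 for Egln3 and 8.41 for Aldoa, against 5.99 and 6.31, 4.62 and 4.63, and 7.24 and 7.55 on the other arrays of its group. Without it 1 member, Vhl (0.54), was called, and the differences of Aldoa, Pdk1 and P4ha1 were 0.45, -0.62 and 0.97 (q = 0.264, 0.0809 and 0.0742). Without replicate 2 of the group 3 members were called, Vhl, Pdk1 and P4ha1, and Aldoa had a q of 0.0606. The call of Egln1 held in 4 of the 15 fits that each left out 1 array (q from 0.0121 to 0.172). On the uneven array the summed level of 6 cholangiocyte markers was 12.02, against 8.45 and 8.96 on the others of its group and 8.24 to 8.42 in the 6 hr shams. Epcam (11.3) and Spp1 (10.51) made up most of that sum, while Krt7 was at 4.17, below the 6 hr shams (4.27 to 4.52). That of 7 neutrophil markers was 9.24 against 7.65 and 7.66, and 7.48 to 7.77 in these shams. Of these lists 1 of 6 and 3 of 7 passed against the pooled shams, while the defining markers Krt7, Mpo and Camp were under 5 on every array. In this lobe 2 of 7 hepatocyte, 1 of 7 macrophage, 1 of 7 endothelial and 1 of 6 stellate markers were lower. The stellate sum of 12.14 to 12.56 was below that of all 12 shams (13.11 to 14.56). By mean level over all arrays Lrat (12.82) is the brightest marker in that sum, before Reln (10.05). The part of these cells in the result was not tested.

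In the non-ischemic lobe at 6 hr 2 members were higher and 2 lower than the pooled shams, where 8.47% of all probe sets were higher, 5.1% lower and 13.6% called. Ero1a measured 12.14 to 12.64 (1.13 ± 0.35, limma q = 0.044) and P4ha1 10.07 to 10.43 (0.93 ± 0.28, limma q = 0.0363). Pdk1 was lower at 9.30 to 9.40, all below the lowest sham of 9.66 as for 3.43% of all probe sets (-0.76 ± 0.17, limma q = 0.00929), and Ddit4 at 5.90 to 5.93 (-0.30 ± 0.09, limma q = 0.0424). The count fell to 0 without replicate 1 of this group (limma q from 0.0593 to 0.136), although the differences hardly changed. They were 1.18 for Ero1a, 0.92 for P4ha1, -0.74 for Pdk1 and -0.31 for Ddit4. The cholangiocyte and neutrophil sums of that replicate, 10.35 and 9.03, stood above its group (8.44 and 8.88, and 7.53 and 7.61). Its cholangiocyte markers Spp1 and Epcam were at 9.63 and 8.53. In this comparison 2 of 6 cholangiocyte and 1 of 7 neutrophil markers were higher, and 2 of 7 macrophage, 1 of 7 hepatocyte and 1 of 6 stellate markers were lower. The stellate sum of 11.99 to 12.84 was below that of all 12 shams (13.11 to 14.56). Their part in the result was not tested. The count of members was 1 without replicate 2 or 3 of the group or replicate 2 or 3 of the 0.5 hr shams, and 2 without any of the 0 hr shams or replicate 1 of the 2 hr shams. Shares of all probe sets called in the fits without 1 array are not given here.

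Between the 6 hr and the earlier shams 1 member passed. Ero1a was at 11.77 to 12.19 in the 6 hr shams and at 10.23 to 11.51 in the 9 earlier shams, 1.12 ± 0.23 higher (limma q = 0.015), where 6.27% of all probe sets were called. In the same comparison 3 of 7 neutrophil markers were higher, and 2 of 6 stellate and 1 of 7 endothelial markers were lower. The neutrophil sums were 7.48 to 7.77 in the 6 hr shams and 7.03 to 7.25 in the earlier ones, and the stellate sums 13.13 to 13.56 and 13.11 to 14.56. Their part in the result was not tested. The call of Ero1a was lost without replicate 1 or 3 of the 6 hr shams (q = 0.0745 and 0.0826), and P4ha1 joined it without replicate 3 of the 0 hr shams. Against the 6 hr shams alone Ero1a differed by -0.05 in the reperfused lobe and 0.29 in the non-ischemic lobe (limma q = 0.928 and 0.376). In the reperfused lobe 2 members passed against those shams, Vhl at 0.79 and Egln1 at 0.48 (limma q = 0.0392 and 0.0365, with 9.68% of probe sets called), and in the non-ischemic lobe 1 did, Pdk1 at -0.78 (limma q = 0.0149, with 7.45% called). Between the lobes 0 of the 10 members and 0% of all probe sets passed at 6 hr, although all reperfused arrays of Vhl and Egln1 lay above all non-ischemic arrays, as in 9.25% of probe sets for either direction. At this time the arrays with raised cholangiocyte and neutrophil sums were replicate 3 of the reperfused and replicate 1 of the non-ischemic lobe, and whether equal numbers are the same rat could not be checked, which touches the paired values and the change of the lobe difference from 0 to 6 hr. The pooled shams had 0 members past the threshold against the unoperated rats, where 1.25% of all probe sets were called. The differences ran from -0.29 (Pdk1) to 0.62 (Ero1a), so the lack of a call is no proof of equal levels. In the unoperated livers Vhl measured 6.32, 6.33 and 6.46, Ddit4 6.10, 6.35 and 6.81, and Pdk1 10.17, 10.18 and 10.82.

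Beyond the 10 members, 80 further genes of the oxygen-sensing machinery and of known HIF targets had a probe set with 1 symbol. Between the lobes 0 of the 80 passed at 0, 0.5, 2 or 6 hr, and at 0 hr 0 of the 80 passed in either lobe against the pooled shams. Their median difference in the clamped lobe at 0 hr was 0.03 against the shams and 0.03 against the non-ischemic lobe, where all probe sets had medians of -0.01 and 0.01. The widest values there were 3.06 for Angptl4, a lipoprotein lipase inhibitor, and -2.53 for Bhlhe40, a repressor of the clock and of metabolism, neither past the threshold. These 2 were chosen after their values were seen.

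With reperfusion, some of these genes moved. In the reperfused lobe 3 of 80 were higher than the shams at 0.5 hr, where 0.803% of all probe sets were higher: Cxcr4, a chemokine receptor, by 1.13, the vasoconstrictor Edn1 by 0.54 and the glucose transporter Slc2a3 by 0.46. Edn1 and Slc2a3 were dim, with mean levels over all arrays of 4.56 and 4.95, as was Hilpda below (4.71). At 2 hr 8 were higher and 3 lower, where 3.95% of all probe sets were higher and 2.94% lower, so that the lower count is near the share of all probe sets. The rises were led by Hmox1, the heme-degrading enzyme, at 3.50 ± 0.63 (limma q = 0.00377), followed by Plod2, a collagen lysyl hydroxylase (1.26), Hilpda, a lipid droplet protein (0.98), Epas1, the HIF-2 alpha subunit (0.93), and Higd1a of the mitochondria (0.55). Ccng2, a cyclin of arrested cells, was lower at -1.44, as were Zfp395 (-0.62) and the histone demethylase Kdm4c (-0.51). On the non-ischemic side 0 of 80 passed at 0.5 hr, and at 2 hr 7 were higher and 3 lower (3.9% and 2.94% of all probe sets). Hmox1 (2.90), the transferrin receptor Tfrc (2.04), Epas1 (0.98), Jmjd6 (0.82) and Plod2 (0.79) led the rises, and Ccng2 (-1.54), Elob (-0.72), a subunit of the Vhl ligase, and Kdm4c (-0.25) were lower.

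At 6 hr 10 of 80 were higher and 9 lower in the reperfused lobe, where 11.5% of all probe sets were higher and 5.12% lower, so that the higher count is near the share of all probe sets. The other lobe had 12 higher and 9 lower, where 8.47% of all probe sets were higher and 5.1% lower. Tfrc (2.29 in the reperfused and 2.51 in the non-ischemic lobe) was the highest in each. Jmjd6 (1.12 and 0.96) and the glycolytic enzymes Tpi1 (1.08 and 1.08) and Eno1 (0.80 and 0.61) rose in both. Cxcr4 rose in the non-ischemic lobe (1.03). Of the 21 genes of glycolysis and glucose use 5 were higher and 0 lower in the reperfused lobe, and 4 and 0 in the non-ischemic lobe, to be read against the same 11.5% and 8.47%. Of the 15 genes of oxygen sensing 2 were higher and 2 lower in the reperfused lobe, and 3 and 1 in the other, against the same shares. Rbx1, the RING subunit of the Vhl ligase, was among the higher ones (0.78 and 0.71), and so was Cul2, its scaffold, in the non-ischemic lobe (0.72). The falls were led by Igfbp1, a secreted binder of insulin-like growth factors that fasting also induces (-4.37 and -4.29), and Ccng2 (-1.99 and -1.93). Ceacam1 (-1.22 and -0.94), Bnip3l (-0.75 and -0.58) and Zfp395 (-0.57 and -0.66) were lower as well. In the 6 hr shams set against the earlier shams, 4 of the 80 were higher and 9 lower, where 3.45% of all probe sets were higher and 2.82% lower. The higher ones were Pgam1 (1.06), Cxcr4 (0.77), Elob (0.57) and Aldoc (0.50, at a mean level of 4.99). Insig2 (-5.29), Angptl4 (-3.43), Plin2 (-3.02), Igfbp1 (-2.93) and Rora (-2.49) led the falls, and Ceacam1 was also lower (-0.70). Cxcr4, Igfbp1 and Ceacam1 thus moved in the same direction in the 6 hr shams, without clamping, as in the lobes above.

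**Figure D5:**
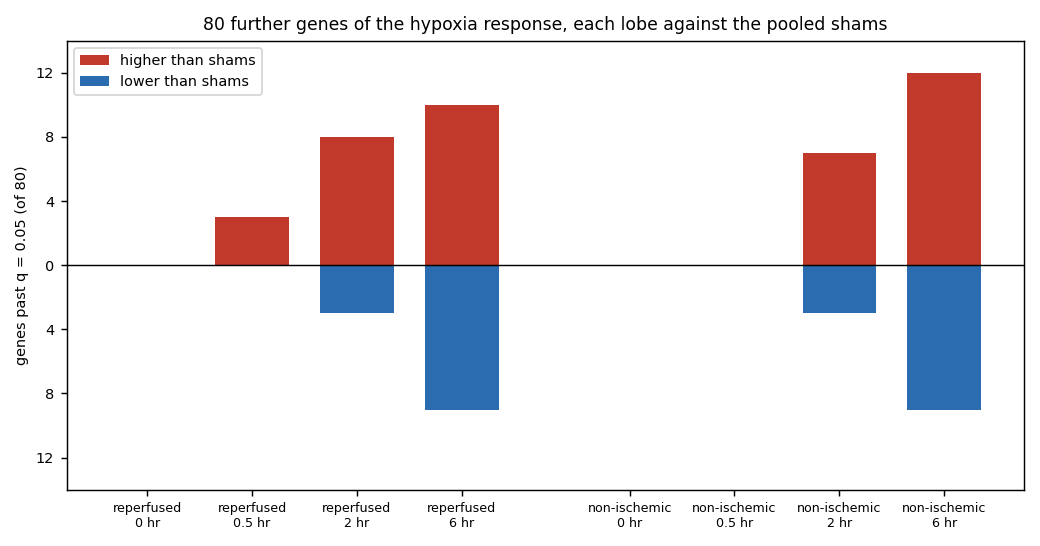
Number of the 80 further hypoxia genes past q = 0.05 (limma) in each lobe against the 12 pooled shams, higher genes above 0 and lower genes below. There are none in either lobe at 0 hr and 3 in the reperfused lobe at 0.5 hr, and at 2 hr there are 8 higher and 3 lower in the reperfused lobe and 7 and 3 in the other.

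The members did not share 1 time course. Over the 13 group means, Pearson correlations between members ran from 0.92 (Aldoa and Ndrg1), 0.88 (Ndrg1 and Vhl) and 0.86 (Pfkfb3 and Ndrg1) to -0.74 (Pdk1 and Aldoa), and Ddit4 was not above 0.35 with any other member. These are descriptions over 13 means from the same 39 arrays. By the same measure the genes most like each member over the series were Ppl (0.982) and Ptpn23 (0.972) for Vhl, Thbd (0.983) and Spring1 (0.947) for Pfkfb3, Cdk17 (0.97) and Lrrfip1 (0.966) for Ndrg1, and Ddx24 (0.968) and Mat2a (0.966) for Aldoa. For Ddit4 they were Nr4a1 (0.874) and Cdkn1c (0.863), for Pdk1 Sult1c3 (0.974) and Zfp385a (0.972), and for P4ha1 Lyn (0.933) and Igsf6 (0.901). Ddx51 (0.979) and Tbrg4 (0.964) followed Egln1, Steep1 (0.927) and Vdac3 (0.904) followed Egln3, and Chuk (0.949) and Yipf6 (0.943) followed Ero1a.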

How the data were processed

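RNA of 39 liver samples was measured on Affymetrix Rat Transcriptome 1.0 arrays. The authors normalized all arrays with Affymetrix Expression Console 1.0 (signal space transformation with RMA) and deposited linear intensity values, on which log2 was taken with no further normalization. Of 23409 probe sets 19778 carried 1 symbol. Each gene is its probe set with the highest mean. Tests used limma 3.58.1 in R 4.3.3 on all probe sets, with the 2 compared groups in each fit, Benjamini-Hochberg q-values and a threshold of 0.05, and Python 3.11.15 elsewhere. The script was tested on simulated data. Lobes of 1 number were taken as 1 rat: the methods took both lobes from the same animals, and the labels give a number but no animal. Deviations of same-numbered lobes correlated at 0.47 to 0.84 up to 2 hr and at 0.14, 0.66 and 0.24 at 6 hr, and those of lobes and shams at -0.23 to 0.18, a range that holds the lowest lobe value, so the pairing at 6 hr could not be checked. The members and lists were chosen with earlier results of these data known. Named from the lists are up to 5 rises and 5 falls past the threshold, and for each member the 2 genes most correlated over group means (mean level of at least 5). Alternatives were filters on the interquartile range and on dim signals, quantile normalization, a limma fit with trend and robust settings, and 1 fit to all arrays. Others were shams of the same time, a replicate block, leaving out each array and, for the change of the lobe difference, no pairing. Precision is limited by 3 arrays per group.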

Additional observations from a re-analysis of the deposited data

Results flagged for a closer look

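Pfkfb3 was the member whose lobe difference turned over between times with every rat on the same side. It was negative in 3 of 3 rats at 0 hr (mean -0.33) and at 0.5 hr (mean -0.57) and positive in 3 of 3 rats at 2 hr (mean 0.49). The change from 0 to 2 hr was 0.82 (95% interval 0.15 to 1.49) and did not pass over all probe sets (limma q = 0.485). The change from 0.5 to 2 hr was not tested.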

How the results depend on the processing

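The count of 0 members called between lobes and for the clamped lobe at 0 hr against the shams was the same under all alternatives, except that 1 member, Vhl, passed between the lobes at 2 hr in the fit to all 39 arrays (0.359% of all probe sets called). That fit called more probe sets in general, such as 881 (3.76%) for the clamped lobe at 0 hr. It called 2 members in the reperfused lobe at 0.5 hr (5.52% of all probe sets), 8 at 6 hr (25.6%) and 5 from 0 to 6 hr (16.9%). On the non-ischemic side it called 2 at 0 hr (3.81%), 5 from 0 to 2 hr (7.01%) and 2 from 0 to 6 hr (16.1%), and 2 in the 6 hr shams (10.6%). Against time-matched shams only, 1, 2 and 2 members passed in the reperfused lobe at 0.5, 2 and 6 hr, and 5, 0 and 1 in the non-ischemic lobe. The filter on the interquartile range and that on dim probe sets each called 2 members from 0 to 6 hr in the non-ischemic lobe, Ddit4 and Ero1a. Without a filter 0 members and 6.31% of all probe sets passed there, and the shares in the filtered fits are not given here. Because each member has 1 probe set, the mean over probe sets is the same value. With the replicate block, which pairs the lobes of a rat, 0 members passed at every time, while over all probe sets 90 passed at 0.5 hr and 13 at 2 hr, against 12 and 3 without it. For the fits without 1 array the shares of all probe sets called are not given here, so a changed count cannot be read as particular to these genes. Leaving out 1 array, the count ranged from 0 to 1, 3 to 4 and 1 to 6 in the reperfused lobe at 0.5, 2 and 6 hr, and from 0 to 1, 1 to 2, 3 to 6 and 0 to 4 in the non-ischemic lobe at 0, 0.5, 2 and 6 hr. From 0 to 2 hr it ranged from 1 to 3 after clamping, and was 0 to 0 on the other side, from 0 to 6 hr from 0 to 1 in each, and in the 6 hr shams from 0 to 2. Directions turned for values that had passed no test: leaving out 1 array gave -0.09 to 0.05 for P4ha1 and -0.09 to 0.19 for Pdk1 between lobes at 0 hr, -0.72 to 0.06 for Ddit4 between lobes at 0.5 hr, and -0.09 to 0.21 for Pfkfb3 and -0.14 to 0.02 for Egln3 in the non-ischemic lobe at 0 hr against shams, where Egln3 was also at 0.28 with the 0 hr shams only. The cause was not tested.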
